A study of Arabidopsis thaliana with 10 samples.

Results

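Salicylic acid is a plant defence hormone, and the 10 Arabidopsis genes described here cover its synthesis, the EDS1 signalling node, the receptor and the classical response genes. They are ICS1 (AT1G74710), EDS5 (AT4G39030) and PBS3 (AT5G13320) for synthesis, EDS1 (AT3G48090), PAD4 (AT3G52430) and SAG101 (AT5G14930) for the EDS1 node, NPR1 (AT1G64280) as receptor, and PR1 (AT2G14610), PR2 (AT3G57260) and PR5 (AT1G75040) as pathogenesis-related response genes. All 10 were picked by name, and their rows were read from a count table of 33602 loci. The study reduced MORF2, the gene of a chloroplast RNA-editing factor, in P1-12, and compared this line with KRAB. Both are transgenic lines in Col-0 that carry dCas9-KRAB, a deactivated Cas9 fused to a transcriptional repressor, under a dexamethasone (Dex)-inducible promoter, and P1-12 also carries the P1 sgRNA against MORF2. Each genotype is represented by 1 transgenic line. The 10 RNA-seq libraries came from whole 8-d-old seedlings grown in long days, with 2 libraries in a group. The P1-12 groups grew on medium with DMSO, 0.025 μM Dex or 0.25 μM Dex, and the KRAB groups on 0.25 μM Dex or DMSO, so that a group is written, for example, P1-12 (+0.25 μM Dex). For its editing analysis of the same sequencing data, the study calls the 2 replicates biological. How their seedlings were kept apart is not given in the sources used here. The p-values thus measure the spread between these libraries, and how much of it is biological cannot be told.

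In Arabidopsis, most of the salicylic acid made in response to pathogens comes from chorismate through ICS1, an isochorismate synthase in the chloroplast. EDS5 exports the product from the plastid, and PBS3 couples isochorismate to glutamate, after which the conjugate breaks down to salicylic acid. EDS1 pairs with PAD4 or SAG101 and relays signals from intracellular immune receptors, and NPR1 binds salicylic acid and, with TGA transcription factors, activates genes such as PR1. PR1, PR2 (a glucanase) and PR5 (a thaumatin-like protein) are secreted proteins that serve as markers of the response.

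The windows of PR2 and PR5 are shown because PR5 was called higher at both doses and PR2 at neither against DMSO in a model of genes over 0.5 CPM in 2 or more libraries, as given below. The authors' files carry no coordinates, and positions here are those of the TAIR10.1 annotation. PR2 lies on the minus strand of chromosome 3 from 21188397 to 21189967, in 2 exons, and PR5 on chromosome 1, plus strand, between 28177670 and 28179022, also in 2 exons. The windows below run from 250 bases before to 50 bases after the annotated transcript start, 5′ to 3′ on the strand of the gene, from the RefSeq copy of TAIR10.1. Capitals mark TTGAC (the W-box core, which WRKY factors bind, written GTCAA where it lies on the other strand) and CACGTG (the G-box).
PR2, chr3:21189918-21190217, minus strand: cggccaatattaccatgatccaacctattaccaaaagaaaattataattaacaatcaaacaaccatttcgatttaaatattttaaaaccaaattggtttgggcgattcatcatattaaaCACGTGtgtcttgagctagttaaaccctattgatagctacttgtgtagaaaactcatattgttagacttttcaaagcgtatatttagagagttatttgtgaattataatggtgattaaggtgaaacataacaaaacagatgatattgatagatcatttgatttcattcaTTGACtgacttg
PR5, chr1:28177420-28177719, plus strand: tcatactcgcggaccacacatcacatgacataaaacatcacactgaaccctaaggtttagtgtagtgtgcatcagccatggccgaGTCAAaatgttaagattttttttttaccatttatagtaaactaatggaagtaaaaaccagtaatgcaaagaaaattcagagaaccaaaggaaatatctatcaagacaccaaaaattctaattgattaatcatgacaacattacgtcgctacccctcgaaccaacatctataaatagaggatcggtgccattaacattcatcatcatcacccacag
Counted on both strands, TTGAC occurred in the windows of 6 of the 9 members examined for motifs (66.7%), against 50.5% of 27443 windows of the same length in the genome. CACGTG occurred in that of PR2 alone (11.1%, against 7.68% of all windows). TGACG, the core bound by TGA factors, occurred in none of the 9, against 23.1% of all windows. TTGAC and TGACG can overlap in the letters TGAC. These matches are letters in a window and not measured binding sites. The study's PR5 primers, AAGCTGGGGATAAGACCATC and ACCTCTCACAGGCACTCTTG, each matched the genome once, on chromosome 1 at 28178411 to 28178430 and 28178533 to 28178552, both within exon 2 of PR5.

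The libraries held 9139050 to 40544617 counts, and the P1-12 libraries 9139050 to 12965935. The deepest was KRAB (+0.25 μM Dex) replicate 1, followed by KRAB (+DMSO) replicate 2 with 29749669. CPM below are counts scaled to a common library total with TMM factors, a scaling that assumes that most genes are level between libraries. MORF2 fell at 0.25 μM Dex in P1-12 by 1.09 on the log2 scale (SE 0.07, adjusted p = 2.04e-08, edgeR), and its locus identifier was taken from general knowledge. Markers of both organs were present in every library. The summed level of 9 shoot markers was 167 to 170 CPM in P1-12 (+0.25 μM Dex), against 108 to 122 CPM in P1-12 (+DMSO), and that of 11 root markers was 182 to 196 CPM, against 167 to 168 CPM. In this comparison 3 of 6 tested shoot markers were called higher and 2 lower (log2 −2.81 to 2.88, median 0.27), and of 10 tested root markers 2 were higher and 1 lower (−0.96 to 0.47, median 0.11). Their part in the results below was not tested. In whole seedlings, a change in the number of cells and a change in RNA per cell cannot be told apart.

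Of the 10 members, 9 had higher levels in both P1-12 (+0.25 μM Dex) libraries than in any of the other 8, and EDS5 was the exception. Over all genes that exceeded 2 CPM in 9 or more libraries, 29.8% lay above the other libraries in this way, and over all loci with a count, 24.5% did. The separation was narrow for NPR1, at 42.1 CPM or more in P1-12 (+0.25 μM Dex) and at most 37.2 CPM elsewhere, and wide for PR1, at 52.9 CPM or more and at most 2.91 CPM elsewhere.

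**Figure D1:**
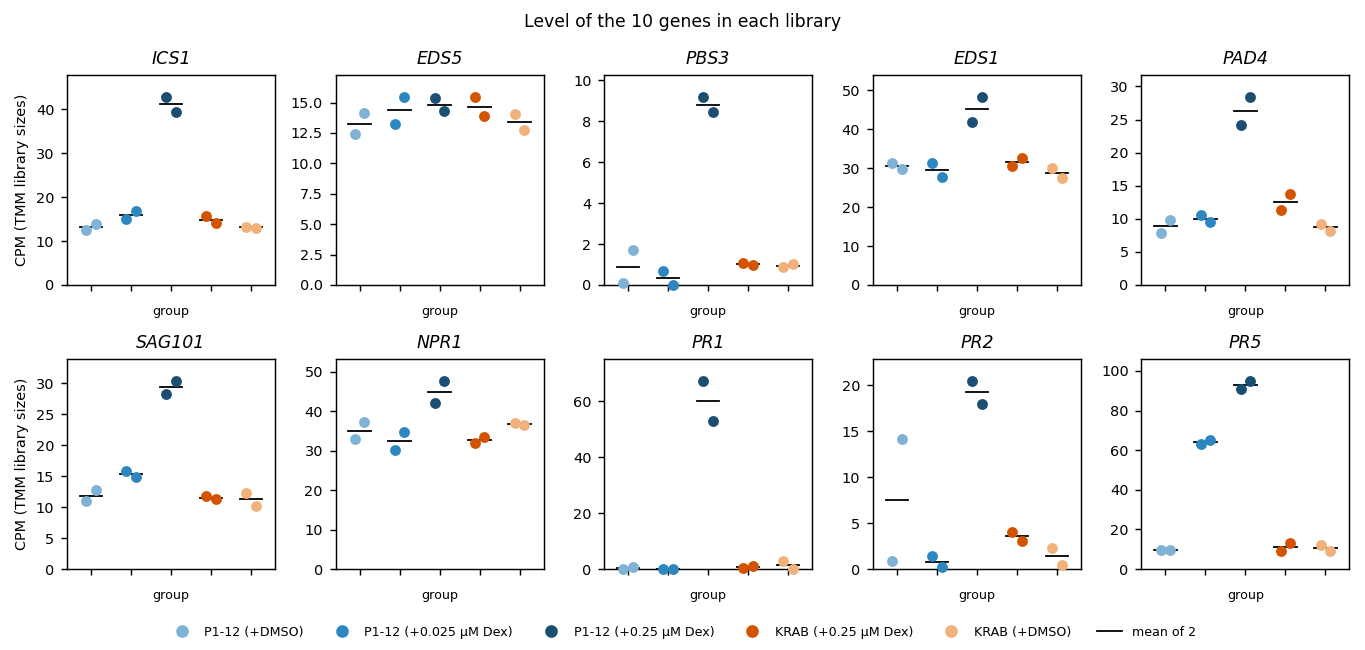
Level of each gene in CPM (vertical axis from 0, with a different scale per panel) in the 10 libraries, by group along the horizontal axis. Points are libraries and lines the mean of the 2. PR5 stands at about 63.4 to 65.3 CPM already in P1-12 (+0.025 μM Dex), where PR1, PR2 and PBS3 are near 0, and EDS5 is level across the groups.

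In edgeR's quasi-likelihood test, 16721 genes passed a filter that asks for over 2 CPM in 9 or more libraries, and a gene is called higher or lower at a Benjamini-Hochberg adjusted p under 0.05. ICS1, EDS5, EDS1, PAD4, SAG101, NPR1 and PR5 passed the filter, while PBS3, PR1 and PR2 exceeded 2 CPM in fewer than 9 libraries and did not. In P1-12 (+0.25 μM Dex) against P1-12 (+DMSO), 6 of the 7 tested members were called higher and 0 lower, where 28.3% of all genes were called higher and 29.2% lower. Of the 7, 4 were at least 2-fold higher with an adjusted p under 0.0001, the study's threshold for a significantly differentially expressed gene (SDEG), beside 5.93% of all genes. The median log2 fold change of the 7 was 1.31, beside −0.00 over all genes tested. Scaling on 6 reference genes in place of TMM shifted the median of all genes by −0.32 and gave 2163 genes higher and 8149 lower. It called 4 of the 7 members higher (EDS1 and NPR1 were not). This scaling uses the summed counts of the 6, so that abundant ones weigh most. With TMM, 1 of the 6 was itself called higher and 1 lower in this comparison (log2 −0.25 to 0.46, median 0.05). Library totals alone gave 5972 and 3983, and TMM gave 4728 and 4885. In P1-12 (+0.025 μM Dex) against P1-12 (+DMSO), 1 of 7 was called higher, beside 4.55% of all genes called higher and 3.46% lower, and it was PR5.

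In P1-12, ICS1 was read 159 and 169 times with DMSO, 153 and 186 times at 0.025 μM Dex and 410 and 425 times at 0.25 μM Dex, which is 12.6 and 13.8, 14.9 and 16.9, and 42.8 and 39.4 CPM. KRAB had 15.7 and 14.0 CPM with 0.25 μM Dex and 13.3 and 12.9 CPM with DMSO. The higher dose thus stood apart from all other groups, whose ranges lay close together. ICS1 was 3.12-fold higher at 0.25 μM Dex than with DMSO (log2 1.64, SE 0.11, edgeR adjusted p = 1.46e-08) and was an SDEG. At 0.025 μM Dex its log2 fold change was 0.27 (95% interval 0.02 to 0.53, adjusted p = 0.208 in edgeR), which did not pass the test.

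EDS5, the plastid exporter that acts after ICS1, showed no detectable change. It had P1-12 levels of 12.4 and 14.1 CPM with DMSO, 13.3 and 15.5 CPM at 0.025 μM Dex and 15.3 and 14.3 CPM at 0.25 μM Dex, and 15.4 and 13.9 CPM in KRAB (+0.25 μM Dex), against 14.1 and 12.8 CPM in KRAB (+DMSO). Both P1-12 (+0.25 μM Dex) libraries lay just above the libraries of the DMSO groups of P1-12 and KRAB, and all other ranges overlap between groups. At 0.25 μM Dex against DMSO in P1-12 the log2 fold change was 0.16 (95% interval −0.13 to 0.44), so that a rise of more than 1.36-fold lies outside the interval. With scaling on 6 reference genes in place of TMM its sign turned, at −0.16 (adjusted p = 0.36 in edgeR). An antisense gene, AT4G39040, shares 213 exon bases with EDS5, and the strand setting of the counting is not given in the sources used here.

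In P1-12, PBS3 was read 1 and 21 times with DMSO, 7 and 0 times at 0.025 μM Dex and 88 and 91 times at 0.25 μM Dex, or 0.08 and 1.71, 0.68 and 0, and 9.19 and 8.44 CPM. In KRAB it was read 44 and 11 times with 0.25 μM Dex and 10 and 29 times with DMSO, which is 0.97 to 1.09 and 0.88 to 1.01 CPM. Only the higher dose in P1-12 rose clear of the other libraries. Summed over 2 libraries, its scaled level was 9.95 times that with DMSO (counting interval 6.37 to 16.3). A model of all loci with any count gave a log2 fold change of 3.31 (SE 0.35), and a model of the 20742 genes that exceeded 0.5 CPM in 2 or more libraries gave 3.32 (SE 0.57, adjusted p = 0.000212, edgeR). Without replicate 1 or 2 of P1-12 (+DMSO) it was 2.36 or 6.67 in the model of all loci.

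The model of all loci moderates the spread of single genes far more strongly (1350 prior degrees of freedom, against 8.74 with the filter of 0.5 CPM), so its SEs for PBS3, PR1 and PR2 are small even where replicates differ widely. For these 3 genes the adjusted p with the filter of 0.5 CPM is given below, and that of the unfiltered model where the calls differ.

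EDS1 had P1-12 levels of 31.4 and 29.9 CPM with DMSO, 31.4 and 27.7 CPM at 0.025 μM Dex and 42.0 and 48.3 CPM at 0.25 μM Dex. In KRAB it had 30.5 and 32.5 CPM with 0.25 μM Dex and 30.0 and 27.6 CPM with DMSO. It was 1.47-fold higher at 0.25 μM Dex than with DMSO in P1-12 (log2 0.56, SE 0.10, edgeR adjusted p = 0.000193). Scaled on the 6 reference genes, whose summed level was itself 988 to 1017 CPM in P1-12 (+0.25 μM Dex) and 805 to 807 CPM in P1-12 (+DMSO), the log2 value of EDS1 was 0.24 and the call was lost (adjusted p = 0.0853). EDS1 took 84.0% to 90.0% of the counts it shares with its neighbour and paralogue AT3G48080, which was not called (log2 0.11), and no stretch of 100 exon bases of EDS1 recurs in the genome.

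PAD4, the partner of EDS1 in basal resistance, had P1-12 levels of 7.91 and 9.87 CPM with DMSO, 10.6 and 9.45 CPM at 0.025 μM Dex and 24.2 and 28.4 CPM at 0.25 μM Dex. In KRAB the levels were 11.3 and 13.8 CPM with 0.25 μM Dex and 9.25 and 8.14 CPM with DMSO. PAD4 was 2.97-fold higher at 0.25 μM Dex in P1-12 (log2 1.57, SE 0.15, edgeR adjusted p = 7.18e-07) and was an SDEG. Its KRAB groups also did not overlap, as held for ICS1, EDS1, PR2 and, with the Dex group lower, NPR1. The share of all genes with such a separation was not computed, so no Dex effect is read from it. In KRAB, 0 of the 7 tested members were called. The log2 difference of PAD4 in KRAB was 0.51 (SE 0.15, adjusted p = 0.0839 in edgeR, and 0.00603 in the unfiltered model, 0.0326 with scaling on reference genes and 0.037 with libraries thinned to equal depth).

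SAG101, the other partner of EDS1, had P1-12 levels of 11.0 and 12.7 CPM with DMSO, 15.9 and 14.9 CPM at 0.025 μM Dex and 28.3 and 30.3 CPM at 0.25 μM Dex, while KRAB had 11.7 and 11.3 CPM with 0.25 μM Dex and 12.2 and 10.3 CPM with DMSO. The 3 dose groups of P1-12 did not overlap, as also held for ICS1 and PR5. The share of all genes with such a separation was not computed, so no graded response is read from it. Of these genes, only PR5 was called at 0.025 μM Dex against DMSO. SAG101 was 2.47-fold higher at 0.25 μM Dex (log2 1.31, SE 0.12, edgeR adjusted p = 4.82e-07), an SDEG, and its log2 value at 0.025 μM Dex was 0.38 (95% interval 0.10 to 0.66, adjusted p = 0.103), which did not pass. PAD4 and SAG101 thus had fold changes above 2, and EDS1 one below 2, in the same comparison, with intervals of 2.37 to 3.72, 2.06 to 2.97 and 1.28 to 1.70.

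NPR1, the salicylic acid receptor and coactivator, changed least among the called members. It had P1-12 levels of 32.9 and 37.2 CPM with DMSO, 30.2 and 34.7 CPM at 0.025 μM Dex and 42.1 and 47.6 CPM at 0.25 μM Dex, and 32.0 and 33.4 CPM in KRAB (+0.25 μM Dex) against 36.9 and 36.4 CPM in KRAB (+DMSO). The log2 fold change in P1-12 at 0.25 μM Dex was 0.36 (SE 0.10, edgeR adjusted p = 0.00563), and it lost the call with scaling on reference genes (0.04, adjusted p = 0.774), without P1-12 (+DMSO) replicate 1 (0.27, adjusted p = 0.0739) and without P1-12 (+0.25 μM Dex) replicate 2 (0.26, adjusted p = 0.0788). The antisense genes AT1G64270 and AT1G08667 share 38 and 214 exon bases with NPR1.

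PR1 had the largest difference between doses among the members. In P1-12 it was read 0 and 9 times with DMSO, 0 times and 1 time at 0.025 μM Dex, and 643 and 570 times at 0.25 μM Dex, which is 67.1 and 52.9 CPM at the higher dose. In KRAB it was read 8 and 14 times with 0.25 μM Dex and 33 times and 0 times with DMSO, or 0.20 and 1.24, and 2.91 and 0 CPM. PR1 thus stayed at 2.91 CPM or less in the other groups, and in P1-12 with DMSO or the lower dose 3 of 4 libraries lay under 3 counts, the detection floor. The scaled level in P1-12 (+0.25 μM Dex) was 165 times that in P1-12 (+DMSO), with a counting interval of 86.5 to 361, and 1266 times that in P1-12 (+0.025 μM Dex), with an interval of 227 to 50054 that reflects a single count in the denominator. The log2 fold change against P1-12 (+DMSO) was 7.36 (SE 0.76, edgeR adjusted p = 1.54e-06) with the filter of 0.5 CPM. In the unfiltered model it was 7.35 (SE 0.25), or 6.34 and 12.93 when replicate 1 or 2 of P1-12 (+DMSO) was left out.

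PR2 gave no firm difference against the DMSO control. In P1-12 it was read 11 and 173 times with DMSO, 14 and 2 times at 0.025 μM Dex and 196 and 194 times at 0.25 μM Dex, or 0.87 and 14.1, 1.37 and 0.18, and 20.5 and 18.0 CPM, and in KRAB 4.02 and 3.09 CPM with 0.25 μM Dex, against 2.29 and 0.49 CPM with DMSO. The 2 control libraries of P1-12 differed more from each other than replicate 2 did from the treated ones. The log2 fold change at 0.25 μM Dex against DMSO was 1.39 (SE 0.62, adjusted p = 0.0737 in edgeR) with the filter of 0.5 CPM, and 1.38 (SE 0.19, adjusted p = 4.73e-12) in the unfiltered model, where it was 4.45 without P1-12 (+DMSO) replicate 2 and 0.45 without replicate 1. Against the lower dose, PR2 was higher at 0.25 μM Dex by 4.67 (SE 0.94, edgeR adjusted p = 0.000959), and against KRAB (+0.25 μM Dex) by 2.39 (SE 0.63, adjusted p = 0.0053). The lower value at 0.025 μM Dex against DMSO in the unfiltered model (−3.28, adjusted p = 3.08e-21) was not called with the filter of 0.5 CPM (adjusted p = 0.0827) and was −0.20 without P1-12 (+DMSO) replicate 2 and −5.29 without P1-12 (+0.025 μM Dex) replicate 1. The unfiltered model also called PR2 higher in KRAB (+0.25 μM Dex) than in KRAB (+DMSO), by 1.81 (SE 0.27, edgeR adjusted p = 6.94e-09), and in P1-12 (+DMSO) than in KRAB (+DMSO), by 2.80 (SE 0.27, adjusted p = 1.5e-21). Neither was called with the filter of 0.5 CPM (adjusted p = 0.345 and 0.779). The first was at 0.70 without KRAB (+DMSO) replicate 2 and 2.91 without replicate 1, and the second at −0.29 without P1-12 (+DMSO) replicate 2.

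PR5 was the one member called higher at both doses. It had P1-12 levels of 9.50 and 9.46 CPM with DMSO, 63.4 and 65.3 CPM at 0.025 μM Dex and 90.6 and 94.8 CPM at 0.25 μM Dex, and in KRAB 9.03 and 13.0 CPM with 0.25 μM Dex, against 12.2 and 8.87 CPM with DMSO. At 0.025 μM Dex it was 6.78-fold higher than with DMSO (log2 2.76, SE 0.15, edgeR adjusted p = 5.88e-08), which placed it 18 of 16721 genes by the size of the log2 fold change. At 0.25 μM Dex it was 9.78-fold higher (log2 3.29, SE 0.15, adjusted p = 4.7e-10), at place 73. The step between the doses was 1.44-fold (log2 0.53, SE 0.12, edgeR adjusted p = 0.00238), and it was not called with scaling on reference genes (0.27, adjusted p = 0.112). At the lower dose MORF2 itself was not called in these libraries (log2 −0.10, SE 0.07, adjusted p = 0.469 in edgeR). By qPCR, however, the study reported that MORF2 transcripts were already reduced in this line at the lower dose. Whether the rise of PR5 at this dose depends on MORF2 was not tested.

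**Figure D2:**
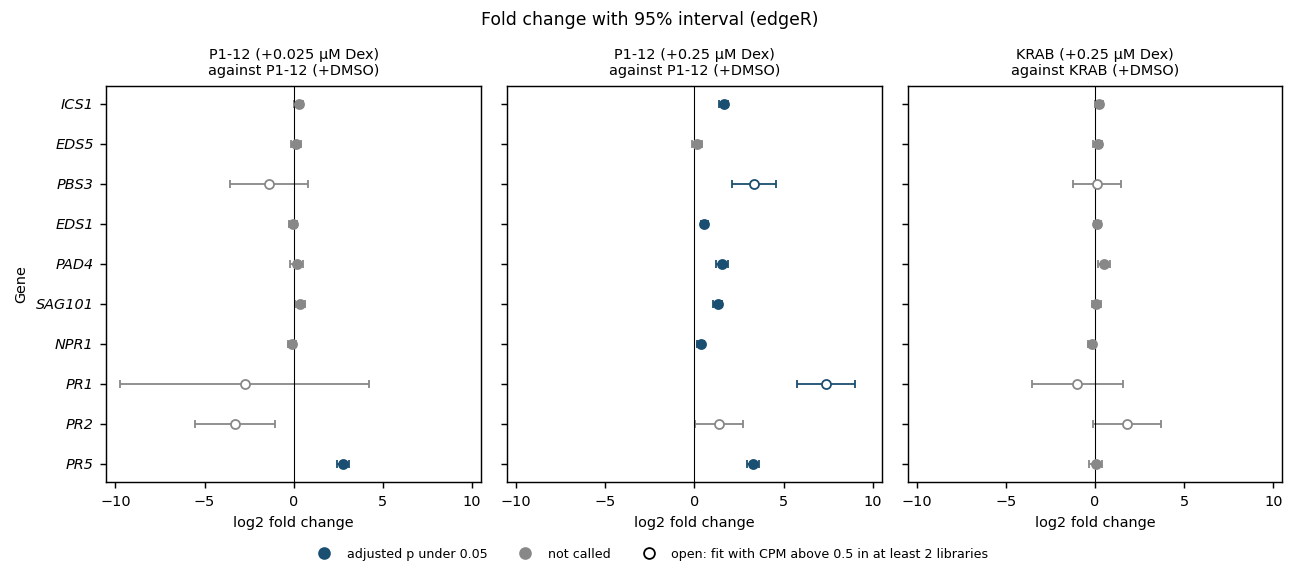
Log2 fold change of each gene with its 95% interval (horizontal axis) in 3 comparisons by edgeR's quasi-likelihood test. Filled points come from the model with the filter of 2 CPM and open points from that with the filter of 0.5 CPM. At 0.025 μM Dex PR5 alone is called, at 2.76, and in KRAB no member is.

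Between the doses in P1-12, 6 of 7 tested members were called higher at 0.25 than at 0.025 μM Dex, beside 24.1% of all genes called higher and 26.4% lower. ICS1 was higher by 1.37, PAD4 by 1.39, SAG101 by 0.93, EDS1 by 0.61 and NPR1 by 0.47 on the log2 scale (SE 0.10 to 0.15, adjusted p of 4.2e-06 for PAD4 and 0.00126 for NPR1 in edgeR). EDS5 differed by 0.04 (95% interval −0.25 to 0.33). With scaling on reference genes NPR1 was not called (0.21, adjusted p = 0.135). PBS3 was higher by 4.72 (SE 0.71, adjusted p = 8.78e-05) in the model with the filter of 0.5 CPM. In the unfiltered model its value was 10.19 or 3.67 without replicate 1 or 2 of P1-12 (+0.025 μM Dex), which held 7 and 0 counts.

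Against KRAB at the same dose, 6 of 7 tested members were again called higher in P1-12 (+0.25 μM Dex), beside 29.2% of all genes called higher and 30.9% lower, by 0.46 for NPR1, 0.53 for EDS1, 1.11 for PAD4, 1.34 for SAG101, 1.44 for ICS1 and 3.16 for PR5. EDS5 had a log2 value of −0.00 (95% interval −0.27 to 0.26). With scaling on reference genes, EDS1 (0.15) and NPR1 (0.08) were not called and EDS5 was called lower (−0.37, adjusted p = 0.0231). PBS3 and PR1 were higher by 3.08 (SE 0.51) and 7.09 (SE 0.66) in the model with the filter of 0.5 CPM, and DESeq2 did not call PBS3 (adjusted p = 0.0541) or PR2 (adjusted p = 0.136). This comparison shares the P1-12 (+0.25 μM Dex) libraries with the others, so it is not separate evidence of the treated level.

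In KRAB, which induces the repressor without the sgRNA, 0 of 7 members were called at 0.25 μM Dex against DMSO, beside 2.06% of all genes called higher and 0.813% lower. At an unadjusted p under 0.05 it was 1 member, PAD4, and DESeq2 called 0. The log2 values ran from −0.17 (NPR1) to 0.51 (PAD4), and PR5 was 0.03 (95% interval −0.31 to 0.38). Without Dex, 0 of 7 members were called between P1-12 and KRAB (beside 0.012% of all genes called higher and 0% lower), 0 had an unadjusted p under 0.05, and the log2 values lay between −0.09 and 0.11. The difference between the Dex responses of the lines was tested as an interaction. Its value is signed, so that a negative value can also mean a deeper fall in P1-12. Of all genes, 22.9% were called with a positive and 25.1% with a negative value. For 6 of 7 members the value was called positive, at 3.26 for PR5 (SE 0.22, edgeR adjusted p = 8.75e-08), 1.43 for ICS1, 1.23 for SAG101, 1.05 for PAD4, 0.53 for NPR1 and 0.43 for EDS1. The value of EDS1 (adjusted p = 0.0167) was not called with scaling on reference genes (0.00) or without any of 4 single libraries, namely P1-12 (+DMSO) replicate 2, P1-12 (+0.25 μM Dex) replicate 2, KRAB (+0.25 μM Dex) replicate 1 and KRAB (+DMSO) replicate 1, at 0.32 to 0.40. That of NPR1 was not called with scaling on reference genes (0.10). With the filter of 0.5 CPM the interaction was 3.20 for PBS3 (SE 0.88, adjusted p = 0.009), 8.35 for PR1 (SE 1.70, adjusted p = 0.0012) and −0.42 for PR2 (SE 1.11, adjusted p = 0.789). DESeq2 called neither PBS3 (adjusted p = 0.221) nor PR1 (adjusted p = 0.0665), and PBS3 was also not called with libraries thinned to equal depth (2.55, adjusted p = 0.0792). In the unfiltered model PBS3 was at 2.24 or 6.55 without replicate 1 or 2 of P1-12 (+DMSO), and PR1 was at 1.48 without KRAB (+DMSO) replicate 1 and 13.92 without P1-12 (+DMSO) replicate 2.

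Levels of different genes were compared per kilobase of exon (RPKM). In P1-12 (+DMSO), NPR1 (13.4 ± 1.2) and EDS1 (12.0 ± 0.43) were the most abundant members, followed by mean by PR5 (8.66 ± 0.022), and ICS1 (6.05 ± 0.39), EDS5 (5.87 ± 0.53) and SAG101 (5.39 ± 0.55) did not differ from each other beyond their spread (mean ± SD in RPKM, n = 2). PR2 (5.07 ± 6.3) has no firm place in this order. It was at 0.59 RPKM in replicate 1 and 9.56 RPKM in replicate 2, where PR5 was at 8.64 RPKM. At 0.025 μM Dex PR5 led with 58.8 ± 1.3 RPKM while the order of NPR1 (12.4 ± 1.2) and EDS1 (11.6 ± 1) stayed within their spread. At 0.25 μM Dex PR5 (84.7 ± 2.7 RPKM) and PR1 (66.5 ± 11 RPKM) stood above ICS1 (18.9 ± 1.1), EDS1 (17.7 ± 1.7) and NPR1 (17.2 ± 1.5), which lay within each other's spread. PBS3 was the least abundant member there, at 3.37 ± 0.2 RPKM.

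Across the 10 libraries, log2 CPM (prior count 2) of the 45 pairs of members correlated with Pearson r of 0.218 to 0.963 and a median of 0.743. This is a description over libraries that share group structure, with a deep library in each KRAB group. The highest was ICS1 with SAG101 (0.963), followed by EDS1 with PAD4 (0.948) and ICS1 with PAD4 (0.938). PR5 followed PR2 (0.218), PBS3 (0.327) and PR1 (0.52) less closely, and EDS5 reached at most 0.5 with any other member. Among 16714 other tested genes, the one most like each member was AT2G20780 for ICS1 (r = 0.996), AT4G38710 for EDS5 (0.942), TGA10 for EDS1 (0.979), WRKY14 for PAD4 (0.991), AT4G02410 for SAG101 (0.993), AT5G50230 for NPR1 (0.982) and SSI2 for PR5 (0.995). SSI2, a stearoyl desaturase gene, was higher by 0.55 (SE 0.07) at 0.025 μM Dex and by 0.72 (SE 0.07) at 0.25 μM Dex on the log2 scale, against P1-12 (+DMSO).

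Beyond the members, 10 lists with 94 genes of the same pathway were examined, and 63 of them were tested. In P1-12 (+0.25 μM Dex) against P1-12 (+DMSO), 37 were called higher (58.7%) and 7 lower (11.1%), beside 28.3% and 29.2% of all genes. The lists describe these samples and were written with earlier results known. With scaling on reference genes 23 of the 63 were called higher and 15 lower, beside 2163 higher and 8149 lower of all 16721 genes.

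Regulators of salicylic acid synthesis had 8 of 12 tested genes called higher and 1 lower. TCP8 (log2 1.1, SE 0.09) and WRKY28 (1.09, SE 0.25, and 0.63 or 1.75 without replicate 1 or 2 of P1-12 (+DMSO)), which bind the ICS1 promoter and activate it, were higher, and so was NAC072 (1.21, SE 0.16), a repressor of ICS1. CHE, a further activator, was lower by 0.81 (SE 0.12). Of other synthesis enzymes, 2 of 6 were higher and 3 lower. Among the phenylalanine ammonia-lyases of the alternative route, PAL4 was higher by 1.68 (SE 0.12), PAL2 by 0.21 (SE 0.08, not called without any 1 of 4 P1-12 libraries, and at −0.10 with scaling on reference genes), and PAL3 was lower by 1.62 (SE 0.19). EPS1, which speeds the release of salicylic acid from the PBS3 product, was lower by 1.06 (SE 0.23), and AT2G21340, a MATE efflux family gene, by 0.84 (SE 0.08).

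Genes that modify salicylic acid were called higher in 4 of 7 cases and lower in 2. DMR6, which hydroxylates salicylic acid, was higher by 1.70 (SE 0.12) and UGT76B1, a glucosyltransferase, by 0.91 (SE 0.09), while MES7, a methyl salicylate esterase, was lower by 1.02 (SE 0.27, called in neither the fit without P1-12 (+DMSO) replicate 2 nor that without P1-12 (+0.25 μM Dex) replicate 1). SOT12, a sulfotransferase, had −0.38 (SE 0.12), a call lost with library totals as scaling and without replicate 2 of either P1-12 group compared. MES9, related to MES7, was at 0.66, which was not called with scaling on reference genes or without replicate 1 of either P1-12 group compared.

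Partners of the EDS1 node were called higher in 7 of 13 cases and lower in 0. The helper receptor genes ADR1 and ADR1-L1, which act with EDS1 and PAD4, were higher by 1.42 (SE 0.12) and 1.02 (SE 0.07), and RPS4, a receptor gene upstream of EDS1, by 0.80 (SE 0.12). Of NPR1 cofactors, 8 of 12 were higher and 1 lower, with TGA3 at 0.90 (SE 0.08), TGA7 at 0.84 (SE 0.12) and the receptor gene NPR4 at 0.72 (SE 0.11). NIMIN3, which binds NPR1, was at −0.43 (SE 0.16), a call lost when any 1 library of either P1-12 group compared was left out.

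WRKY54 and WRKY18, transcription factor genes that respond to salicylic acid, were higher by 2.91 (SE 0.20) and 2.75 (SE 0.14), 2 of the 3 tested in their list. ACD6 (2.03, SE 0.30), WAK1 (1.80, SE 0.27) and AT5G03350, a legume lectin family gene (1.13, SE 0.24), were higher among 4 tested other responsive genes. ACD6 was at 2.96, WAK1 at 2.76 and AT5G03350 at 1.81 without P1-12 (+DMSO) replicate 2, and they were at 1.46, 1.21 and 0.66 without replicate 1. Of 5 tested secretory chaperones, which serve the export of PR proteins, CRT3 was higher by 0.39 (SE 0.08) and BIP1 by 0.33 (SE 0.07), and neither was called with scaling on reference genes (0.08 and 0.02).

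**Figure D3:**
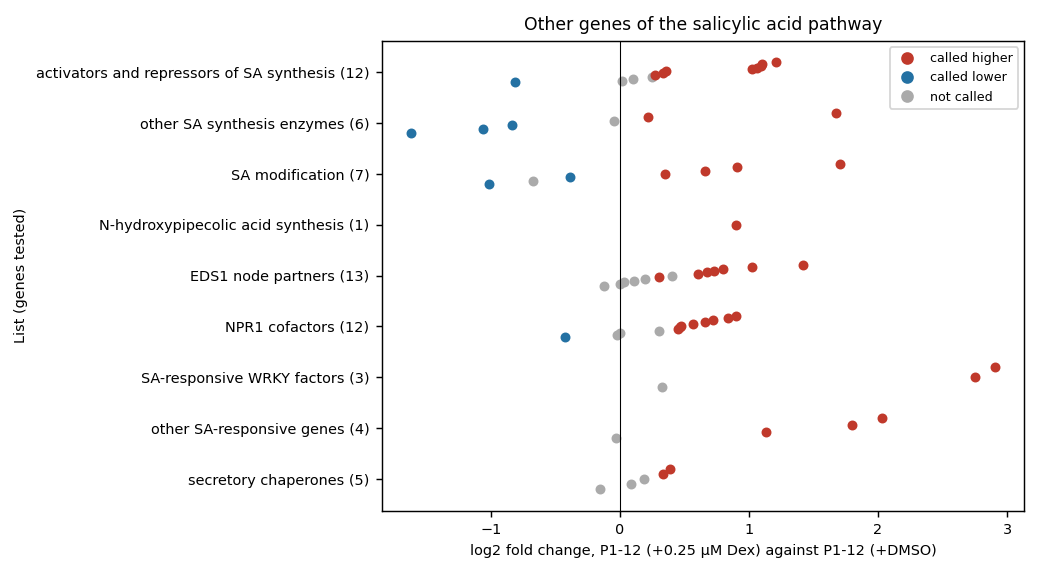
Log2 fold change in P1-12 (+0.25 μM Dex) against P1-12 (+DMSO) (horizontal axis) of the 63 tested pathway genes, 1 row per list with the number of genes tested. Red points were called higher, blue points lower and grey points not; WRKY54 lies farthest to the right at 2.91 and PAL3 farthest to the left at −1.62.

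At 0.025 μM Dex, 5 of the 63 were called higher and 0 lower, beside 4.55% and 3.46% of all genes. WRKY18 was higher by 1.39 (SE 0.15) and AT5G52810, which acts in the synthesis of the related signal pipecolic acid, by 1.25 (SE 0.14). CBP60a and CAMTA2, listed as repressors of salicylic acid synthesis, were higher by 0.43 and 0.32, and PAL2 by 0.38. In KRAB at 0.25 μM Dex, 5 were called higher and 0 lower, beside 2.06% and 0.813% of all genes. These were WRKY54 (0.91, SE 0.22), TGA7 (0.54, SE 0.11), PAL1 (0.42), BIP2 (0.35) and PAL2 (0.33).

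Like PBS3, PR1 and PR2, 31 of the 94 pathway genes did not pass the filter of 2 CPM, and 27 of these were tested with the filter of 0.5 CPM. At 0.25 μM Dex against DMSO in P1-12, 19 were called higher there and 4 lower, beside 27.2% and 26.6% of 20742 genes. Genes that are low except where they are raised reach such a filter through the raised group, so these counts are a description. The genes named from this set were chosen after their values were seen.

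SARD1, the transcription factor that activates ICS1, differed at both doses. It had P1-12 levels of 0.63 and 1.88 CPM with DMSO, 15.7 and 17.3 CPM at 0.025 μM Dex and 144 and 141 CPM at 0.25 μM Dex. SARD1 was higher by 3.72 (SE 0.37, edgeR adjusted p = 2.34e-05) at 0.025 μM Dex and by 6.84 (SE 0.29, adjusted p = 2.78e-10) at 0.25 μM Dex. It also differed in KRAB, with 12.7 and 7.06 CPM at 0.25 μM Dex, against 1.58 and 0.63 CPM with DMSO (log2 3.56, SE 0.35, adjusted p = 8.92e-05), and the response was larger in P1-12 by 3.29 (SE 0.66, adjusted p = 0.00105).

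LURP1, a gene induced on pathogen recognition, followed a like course in P1-12, with 0.24 and 6.85 CPM with DMSO, 12.6 and 15.1 CPM at 0.025 μM Dex and 245 and 271 CPM at 0.25 μM Dex, and 17.6 and 12.0 CPM in KRAB (+0.25 μM Dex) against 2.38 and 0.56 CPM in KRAB (+DMSO). Its log2 value was 6.22 (SE 0.45, edgeR adjusted p = 4.21e-08) at 0.25 μM Dex and 1.98 (SE 0.56, adjusted p = 0.049) at 0.025 μM Dex in P1-12, and 3.81 (SE 0.59, adjusted p = 0.00291) in KRAB. The value at 0.25 μM Dex was 5.26 without P1-12 (+DMSO) replicate 1 and 10.05 without replicate 2, and that at 0.025 μM Dex was 5.82 without replicate 2. Its call at the lower dose was lost in DESeq2 (adjusted p = 0.607), without P1-12 (+DMSO) replicate 1 (1.02, adjusted p = 0.171) and without either library of P1-12 (+0.025 μM Dex) or of P1-12 (+0.25 μM Dex). That in KRAB was lost in DESeq2 (adjusted p = 0.217) and without KRAB (+DMSO) replicate 2 (2.70, adjusted p = 0.147), and the interaction was not called (2.41, adjusted p = 0.0632).

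CBP60g, the relative of SARD1 with the same target, had P1-12 levels of 0.79 and 2.45 CPM with DMSO, 1.85 and 2.82 CPM at 0.025 μM Dex and 19.8 and 17.5 CPM at 0.25 μM Dex. It was higher by 3.55 (SE 0.30, edgeR adjusted p = 2.11e-07) at 0.25 μM Dex and was not called at 0.025 μM Dex (0.54, adjusted p = 0.517) or in KRAB (0.56, adjusted p = 0.447). WRKY70, a further regulator of the response, had P1-12 levels of 3.09 and 4.73 CPM with DMSO, 1.56 and 1.00 CPM at 0.025 μM Dex and 29.1 and 29.0 CPM at 0.25 μM Dex. It was lower at the lower dose by 1.61 (SE 0.31, adjusted p = 0.00584, lost without P1-12 (+DMSO) replicate 2 or P1-12 (+0.025 μM Dex) replicate 2) and higher at the higher dose by 2.91 (SE 0.19, adjusted p = 1.63e-08).

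ICS2, the paralogue of ICS1 with a minor part in synthesis, ran against it. It had P1-12 levels of 9.26 and 9.95 CPM with DMSO, 5.27 and 6.0 CPM at 0.025 μM Dex and 0.52 and 0.65 CPM at 0.25 μM Dex, and 11.3 and 9.80 CPM in KRAB (+0.25 μM Dex) against 7.31 and 9.42 CPM in KRAB (+DMSO). It fell by 3.99 (SE 0.28, edgeR adjusted p = 3.46e-08) at 0.25 μM Dex and by 0.77 (SE 0.18, adjusted p = 0.0186) at 0.025 μM Dex on the log2 scale, and the call at the lower dose was lost when any 1 of the 4 libraries compared was left out. In KRAB it was not called (0.32, adjusted p = 0.307), and the interaction was −4.31 (SE 0.33, adjusted p = 2.28e-07).

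**Figure D4:**
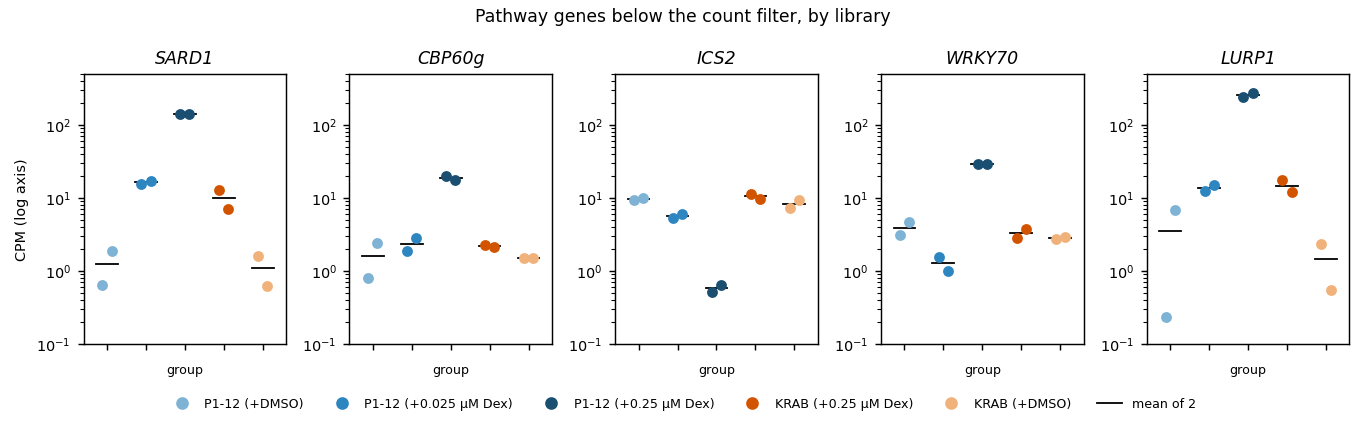
Level in CPM (vertical log axis from 0.1 to 500, the same in each panel) of 5 pathway genes below the filter of 2 CPM, by group along the horizontal axis. Points are libraries and lines the mean of the 2; SARD1 and LURP1 step up at each Dex dose in P1-12, to 141 CPM or more and 245 CPM or more, and ICS2 steps down to 0.65 CPM or less.

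Relatives of the PR genes were read rarely and moved apart. AT1G75030, a thaumatin-like gene related to PR5, was higher by 2.10 (SE 0.28, edgeR adjusted p = 2.26e-05) at 0.25 μM Dex in P1-12. BG3, a glucanase gene related to PR2, was called higher, with 2.71 and 4.36 CPM, against 0 and 0.16 CPM with DMSO. PRB1, the basic relative of PR1, was called lower, with 0 and 3 counts in P1-12 (+0.25 μM Dex), against 20 and 24 counts in P1-12 (+DMSO). No stretch of 100 exon bases of PR1, PR2 or PR5 recurs elsewhere in the genome. ALD1, which acts in the synthesis of pipecolic acid, was at −1.27 (SE 0.43, adjusted p = 0.0234 in edgeR) in P1-12 and −2.39 (SE 0.43, adjusted p = 0.00915) in KRAB at 0.25 μM Dex. The call in P1-12 was lost in DESeq2 and without any 1 of the 4 libraries compared, and that in KRAB was lost with libraries thinned to equal depth and without KRAB (+0.25 μM Dex) replicate 1 or KRAB (+DMSO) replicate 2.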

How the data were processed

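RNA was sequenced from whole seedlings in 10 libraries, 2 for each of 5 groups. The submitters' processing notes name Trimmomatic, TopHat2 and HTSeq for the authors' trimming, alignment and counting, and TAIR10 as the genome (versions and strand setting are not given in the sources used here). The deposited table holds whole-number read counts that the authors did not normalize, for 33602 loci, of which 8820 had 0 counts in every library. Library totals ran from 9139050 to 40544617, so that the detection floor of 3 counts amounts to 0.0740 to 0.313 CPM. Intervals on counts cover counting error only.

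CPM and log2 fold changes were derived from the counts with edgeR 4.0.16 under R 4.3.3, using TMM factors and 1 quasi-likelihood model (glmQLFit, glmQLFTest) of the 5 groups over all 10 libraries. The study's filter, over 2 CPM in 9 or more libraries, kept 16721 genes, over which p-values were adjusted (Benjamini-Hochberg), and genes were called at an adjusted p under 0.05. Members below the filter were fitted without a filter (24782 loci) and with over 0.5 CPM in 2 or more libraries (20742 genes). RPKM used exon lengths of TAIR10.1. The window of 1 member is not reported here. The model was tested on simulated data with 200 changed genes.

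Alternatives were other scalings (DESeq2 size factors, library totals, 6 reference genes), other filters, DESeq2 1.42.0, the replicate block, only the groups compared, thinned counts, EDS1 summed with AT3G48080, and each library left out. The members and lists were chosen with earlier results of these data known. The text names all 10 members, MORF2, up to 3 called genes of each list per direction, the gene most like each tested member, overlapping loci, and listed genes below the filter, and the listed genes named at 0.025 μM Dex and in KRAB were chosen after their values were seen.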

Additional observations from a re-analysis of the deposited data

Results flagged for a closer look

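The response to 0.25 μM Dex differed between P1-12 and KRAB for 6 members by the interaction test of edgeR (n = 2 libraries in each of the 4 groups). The log2 response in P1-12 exceeded that in KRAB by 3.26 (SE 0.22, adjusted p = 8.75e-08) for PR5, by 1.43 (SE 0.15, adjusted p = 4.17e-06) for ICS1 and by 1.23 (SE 0.17, adjusted p = 4.62e-05) for SAG101. It exceeded it by 1.05 (SE 0.21, adjusted p = 0.000977) for PAD4, by 0.53 (SE 0.13, adjusted p = 0.00458) for NPR1 and by 0.43 (SE 0.13, adjusted p = 0.0167) for EDS1. Over all tested genes 22.9% were called with a positive interaction value, which includes genes that fell less in P1-12, and 25.1% with a negative one.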

How the results depend on the processing

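Of the 25 called results of the 7 tested members, 465 of 479 alternative values kept their direction and call, 14 lost the call and 0 turned round; of their 24 results not called, 410 of 459 kept, 4 became called and 45 turned round. For PBS3, PR1 and PR2 the calls counted here are those of the unfiltered model. Its 14 called results kept 226 of 252, lost 25 and turned 1 round, and the 7 not called kept 105 of 126, with 9 becoming called and 12 turning round. The called results include those of PR2 for both doses against DMSO in P1-12, in KRAB and between the DMSO groups. These PR2 results were not called with the filter of 0.5 CPM. For the other named genes 883 of 930 values kept, 46 lost the call and 1 turned round. The cause of these changes was not tested. PBS3, PR1 and PR2 lay under 3 counts in some libraries, the floor below which a level is not detectable at this depth.

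Scaling on reference genes gave EDS5 log2 values of −0.16 against P1-12 (+DMSO) and −0.21 against P1-12 (+0.025 μM Dex), and 0.045 between the DMSO groups, PAL2 one of −0.10 against P1-12 (+DMSO), 1 member lower in P1-12 against KRAB at 0.25 μM Dex, 1 member higher in KRAB with Dex, 23 pathway genes higher and 15 lower at 0.25 μM Dex, and 2 higher and 2 lower at 0.025 μM Dex. EDS5 against KRAB (+0.25 μM Dex) was 0.011 with DESeq2 size factors, 0.064 with library totals, 0.019 in DESeq2, 0.0035 with only the groups compared, 0.087 with thinned counts, 0.0066 without a filter and 0.017 with the filter of 0.5 CPM, and its interaction was 0.014, 0.066, 0.027, 0.0038, 0.028, 0.013 and 0.019 in that order. Thinned counts also gave 0.059 for EDS5 and 0.58 for PBS3 between the DMSO groups, −0.0019 for SAG101 in KRAB, 0.12 for the PR2 interaction (0.017 in DESeq2) and 1 member higher in KRAB with Dex. Without a filter 1 member was lower at 0.025 μM Dex, 2 were higher in KRAB with Dex and 1 between the DMSO groups, and 10 pathway genes were higher and 3 lower at 0.025 μM Dex, where library totals gave 9 higher, DESeq2 gave 3 higher, and only the groups compared gave 8 higher and 1 lower.

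Leaving out each library in turn, pathway genes called lower at 0.25 μM Dex numbered 4 to 7, and those at 0.025 μM Dex 2 to 6 higher and 0 to 1 lower. Between the DMSO groups the log2 values ran from −0.051 to 0.079 for ICS1, −0.093 to 0.089 for EDS5, −3.49 to 0.82 for PBS3, −0.11 to 0.21 for PAD4, −0.042 to 0.21 for SAG101, −0.15 to 0.026 for NPR1, −6.85 to 5.59 for PR1, −0.29 to 3.91 for PR2 and −0.36 to 0.10 for PR5. At 0.025 μM Dex against DMSO they ran from −6.87 to 1.96 for PBS3, −0.15 to 0.037 for EDS1 and −5.59 to 2.83 for PR1, and in KRAB from −0.087 to 0.18 for SAG101, −2.71 to 5.86 for PR1 and −0.25 to 0.37 for PR5. EDS5 ran from −0.051 to 0.16 between the doses, −0.061 to 0.095 against KRAB and −0.083 to 0.099 in the interaction, where PR2 ran from −1.53 to 2.67.

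Leaving out 1 library moved the counts of calls over all genes in KRAB and at 0.025 μM Dex, where the shares of all genes thus depend on single libraries. With all 10 libraries kept, counts of calls over all genes moved by over 1.5 times, or their split by over 10 points, under these settings. With reference genes, 1753 were higher and 7038 lower between the doses (TMM 4035 and 4416), 1964 and 9182 against KRAB (4884 and 5166), 1326 and 8006 in the interaction (3836 and 4198), 720 and 57 in KRAB (344 and 136) and 510 and 618 at 0.025 μM Dex (761 and 579). Library totals gave 947 and 453 at 0.025 μM Dex and 506 and 104 in KRAB, only the groups compared gave 147 and 30 in KRAB, and no filter gave 1231 and 990 at 0.025 μM Dex, 920 and 497 in KRAB, and 127 and 35 between the DMSO groups (2 and 0), where DESeq2 gave 12 and 1.

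Same-numbered libraries showed little joint deviation (correlations of −0.127 to 0.071 over 10 pairs). This cannot exclude that they were grown or prepared together, since counting noise enters each deviation. With the replicate block ICS1 was at 1.64 and PR5 at 3.29 for 0.25 μM Dex against DMSO, the EDS5 interaction was 0.0016, and the block left the counts of members called as they were in all 7 comparisons. In the unfiltered model the block ended the calls of PR2 in KRAB (1.91, edgeR adjusted p = 0.229) and between the DMSO groups (2.79, adjusted p = 0.313). With the filter of 0.5 CPM it ended that of LURP1 at 0.025 μM Dex (1.99, adjusted p = 0.0609).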

Other observations

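One P1-12 (+DMSO) library carried more of the response transcripts than its replicate. Replicate 2 had 14.1 CPM of PR2, 6.85 CPM of LURP1, 4.49 CPM of PCC1 (a salicylic acid-responsive gene) and 1.71 CPM of PBS3, whereas replicate 1 had 0.87, 0.24, 0.16 and 0.08 CPM. PR1 was read 9 times in replicate 2 and 0 times in replicate 1. PR5 did not share this difference, at 9.46 CPM in replicate 2 and 9.50 CPM in replicate 1. In KRAB (+DMSO), PR1 was read 33 times in replicate 1, which holds 11572935 counts, and 0 times in replicate 2, which holds 29749669.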
